A study of Mus musculus with 17 samples.

Results

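The comparison of resting macrophages set N4bp1 knockout (KO) cells against wild-type (WT) cells, neither of which had received any treatment. It rests on 4 of the 16 immunoprecipitated libraries of the study, 2 titled KO-unstim and 2 titled WT-unstim, chosen by those titles. All were RNA polymerase II (Pol II) ChIP-seq libraries from mouse bone marrow-derived macrophages, which are grown in culture from marrow progenitors, made with the AbFlex RNA Pol II antibody. The other 12 libraries came from the same genotypes after 2, 4 or 6 h of R837 (imiquimod, an agonist of TLR7), and they enter here only where a fit or a comparison uses them. The labels do not give strain, sex, age, the deleted part of N4bp1, or whether replicates came from separate animals, so p-values here reflect only how much these libraries vary, and that variation may be technical.

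Pol II initiates at promoters, often pauses a short way into the gene, and can slow again past the polyadenylation site before it lets go of the template. A ChIP-seq peak marks where polymerase accumulates, and its summit is the base of highest enrichment. N4BP1 is known in mouse macrophages as a brake on cytokine production that caspase-8 cleaves, and the study's title places the pair in crosstalk between IkB kinases. The present comparison addresses what the polymerase landscape looked like before stimulation and whether it differed without N4bp1.

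As deposited, the KO lists were 21439 and 22701 summits long and the WT lists 24720 and 20607. Read depth is unknown, so a summit is described by its rank within its own list, where rank 1 is the best. Because list lengths differ, only the best 8394 summits of each were kept, as many as the shortest of the 16 lists holds. A gene took the best rank found between 1 kb before and 1 kb after its span. Its rank score is log2 of the number of summits kept plus 1, divided by the rank, and runs from 0 (no summit in the shortened list) to 13.04 (rank 1), and a difference of 1 means a rank 2 times better. A rank is a place in a list and not an amount of polymerase. Where a rank above 8394 is printed, it comes from the full deposited list.

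The lists of the 2 genotypes looked alike as wholes. Between 6430 and 6689 of 21887 protein-coding genes carried a summit per shortened KO list, and between 6566 and 6678 per shortened WT list. A total of 4758 genes (21.7%) had a summit in all 4. The share of summits within 1 kb of an annotated start was 59.9% ± 2.05 in KO and 59.9% ± 1.71 in WT (SD, n = 2 each). The share at 3′ ends was 5.19% and 4.09% in KO, against 3.81% and 3.9% in WT. These shares did not overlap, but 2 libraries against 2 cannot give an exact two-sided permutation p under 0.333, which is what this difference had. In the full lists they were 6.92% and 5.82% in KO and 5.97% and 5.56% in WT, which overlap (exact permutation p = 0.667). Of the summits in a list, 71.2% lay within 500 bp of a summit in the other library for the KO pair and 71.6% for the WT pair, against 70.4% to 72.3% for the 4 pairings of KO with WT. The mean of the replicate pairs exceeded the mean of the mixed pairs by 0.128 percentage points (exact permutation p = 0.333). Across the 4758 genes in all lists, Spearman's rho of the rank scores was 0.70 for the KO pair, 0.66 for the WT pair and 0.66 to 0.68 for mixed pairs. This is a correlation across genes, which are not independent replicates.

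The median summit within 2 kb of a start lay 73 and 81 bp into the gene in KO and 69 and 79 bp in WT. The profile around starts had its main peak just inside the gene and a shoulder before the start.

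**Figure D1:**
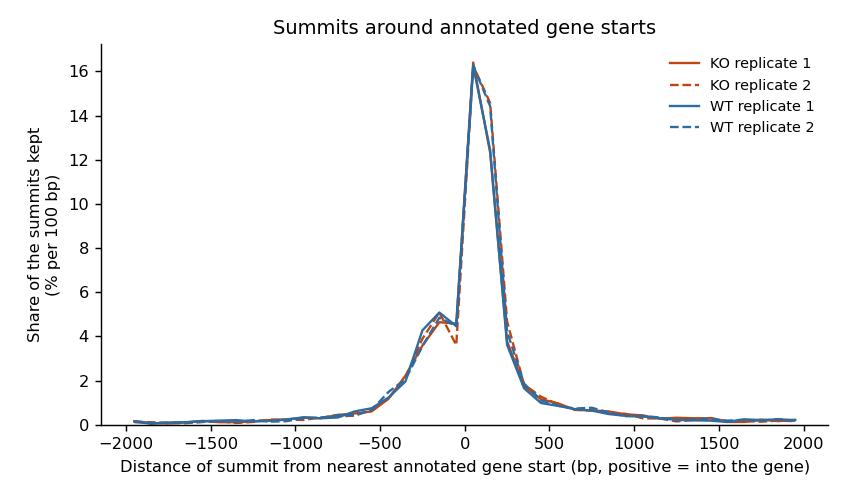
Share of all summits kept in a list (y axis, percent per 100 bp) by distance from the nearest annotated start (x axis, bp, drawn to 2 kb on either side) for each untreated library. The 4 lines nearly coincide, with the main peak in the first 200 bp of the gene.

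The cells carried polymerase at macrophage genes and hardly at markers of other lineages. Of 34 macrophage identity genes, 25 (73.5%) had a summit in all 4 shortened lists, against 21.7% of all genes. The list held 8 genes among the best 200 summits of every library, including Lgals3 (galectin-3), Csf1r (the receptor for the growth factor M-CSF), Cd68, Spi1 (the lineage factor PU.1), Gpnmb, Cebpa and C1qc (a chain of complement C1q). Spi1 stood at ranks 64 and 84 in KO and at 44 and 113 in WT, and Cd68 at 47 and 66 in KO and at 50 and 155 in WT, so both genes overlapped between genotypes. The summit of Cd68, 26 to 345 bp before its start, was in all 4 lists also that of Eif4a1, so it cannot be assigned to Cd68 alone. No marker of B cells, mast cells and basophils, erythroid cells or stroma had a summit in any of the 4 shortened lists, nor did any of 13 neutrophil markers. Among 9 dendritic cell markers, Xcr1 alone had one in all 4, and it shared that summit with the overlapping gene Fyco1. Of the T and NK cell markers, Lck had one in WT replicate 1 alone (rank 5641). Summed over its list, the dendritic rank score was 0.37 to 1.61 in KO and 0.95 to 1.17 in WT, and the T and NK score was 0.00 in KO and 0.00 to 0.57 in WT. In a bulk culture, fewer cells of a type and less polymerase per cell cannot be told apart. Xist had no summit in any deposited list. Of the Y chromosome genes, Uty had a low-ranked summit in all 4 full lists (ranks 13440 to 15755). Ddx3y lacked one in WT replicate 2, Eif2s3y had one only in KO replicate 1 and WT replicate 2, and Kdm5d had none.

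N4bp1 itself was weakly occupied at rest. Its best summit (gene on chromosome 8, 86841136 to 86885296 on GRCm38, minus strand) stood at ranks 15889 and 16337 in KO and at 14798 and 14443 in WT, so it entered no shortened list and its rank score was 0.00 in each. The summits lay 460 and 606 bp inside the start in KO, and 156 bp before it and 760 bp inside it in WT. With lists shortened to 20607 summits, the KO minus WT difference was −0.14 ± 0.36 (SE, limma adjusted p = 0.977). Because the deleted part of the gene is not given, a summit near the start of N4bp1 does not check the KO label. Within 1 Mb of N4bp1, the flanking genes Lonp2 and Siah1a had summits and neither separated the genotypes. Lonp2, a peroxisomal protease, stood at ranks 12030 and 4721 in KO and at 4850 and 12940 in WT.

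In all, 117 protein-coding genes had a summit among the best 200 of all 4 lists, out of 337 that had one in any. They are described by rank without a test, because rank chose them. Replication-dependent histone genes contributed 10 of the 117, macrophage identity genes 8, immediate early genes 6, lysosomal genes 5, actin cytoskeleton genes 3 and chaperones 3. The histone count leaves out H3f3b and other histone genes among the 117 that are not on that list, and some of its members share 1 summit. From the lists of NF-kB primary targets, interferon-stimulated genes, glycolysis, cell cycle and IKK or caspase-8 pathway components, none was among the 117. A summit can serve more than 1 gene region, and 35 of the 117 shared their best summit with another coding gene in at least 1 list.

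The leading genes encode general machinery and abundant macrophage proteins. H3f3b, which encodes the replication-independent histone H3.3, stood at ranks 1 and 5 in KO and at 5 and 4 in WT. Polr2a, the gene of the largest Pol II subunit itself, stood at 10 and 7 in KO and at 2 and 3 in WT. Its groups did not overlap, and the difference in rank score, −1.77 ± 0.60 (SE, limma adjusted p = 0.250), did not pass the test. Actb (beta-actin) stood at 9 and 4 in KO and at 8 and 6 in WT. Rpl3, of the large ribosomal subunit, stood at 4 and 10 in KO and at 14 and 7 in WT. The ranks of each of these 4 genes lay within 10 places of each other across the 4 libraries.

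Iron storage was represented by both ferritin chains. Fth1, the heavy chain with ferroxidase activity, stood at ranks 6 and 3 in KO and at 12 and 5 in WT. Its best summit lay near the start in replicate 2 of each genotype (149 bp in KO, 141 bp in WT) and near the 3′ end in replicate 1 of each (2935 bp from the start in KO, 3226 bp in WT). Fth1 shared its best summit with Best1 in 2 lists. Ftl1, the light chain, shared its best summit with Gys1 (glycogen synthase), whose 3′ end faces its own. That summit stood at 7 and 15 in KO and at 6 and 11 in WT, 2466 to 2739 bp from the start of Ftl1 and more than 22 kb from the start of Gys1.

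Other leading genes encode regulators of mRNA and of transcription. Zfp36l2, which encodes an AU-rich element binding protein, stood at ranks 19 and 9 in KO and at 4 and 9 in WT. Its paralogue Zfp36 (tristetraprolin) stood at 20 and 18 in KO and at 15 and 8 in WT. Junb, an AP-1 subunit, stood at 14 and 26 in KO and at 19 and 18 in WT. Id3, an inhibitor of basic helix-loop-helix factors, stood at 35 and 32 in KO and at 29 and 14 in WT. Atf4, the transcription factor of the integrated stress response, stood at 25 and 11 in KO and at 41 and 48 in WT, without overlap. Its difference in rank score, 1.42 ± 0.74, did not pass (SE, limma adjusted p = 0.552).

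Lysosomal genes were led by Ctsd (cathepsin D), at ranks 23 and 24 in KO and 16 and 16 in WT, and Psap (the saposin precursor), at 16 and 14 in KO and 27 and 41 in WT. The groups did not overlap for either gene, and they lay on opposite sides. The first 25 also included Rsrp1, Tspoap1, Gtf3c6 (a subunit of TFIIIC), Ucp2 (a mitochondrial carrier) and the histone genes H4c14, H4c4 and the cluster H2ac21, H2bc21 and H2ac20, which share 1 summit. For Tspoap1 the summit lay 1649 to 2414 bp beyond the first base of the neighbouring Mir142 hairpin, and for Gtf3c6 at the U3 gene Rnu3a, about 0.9 kb before its start.

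**Figure D2:**
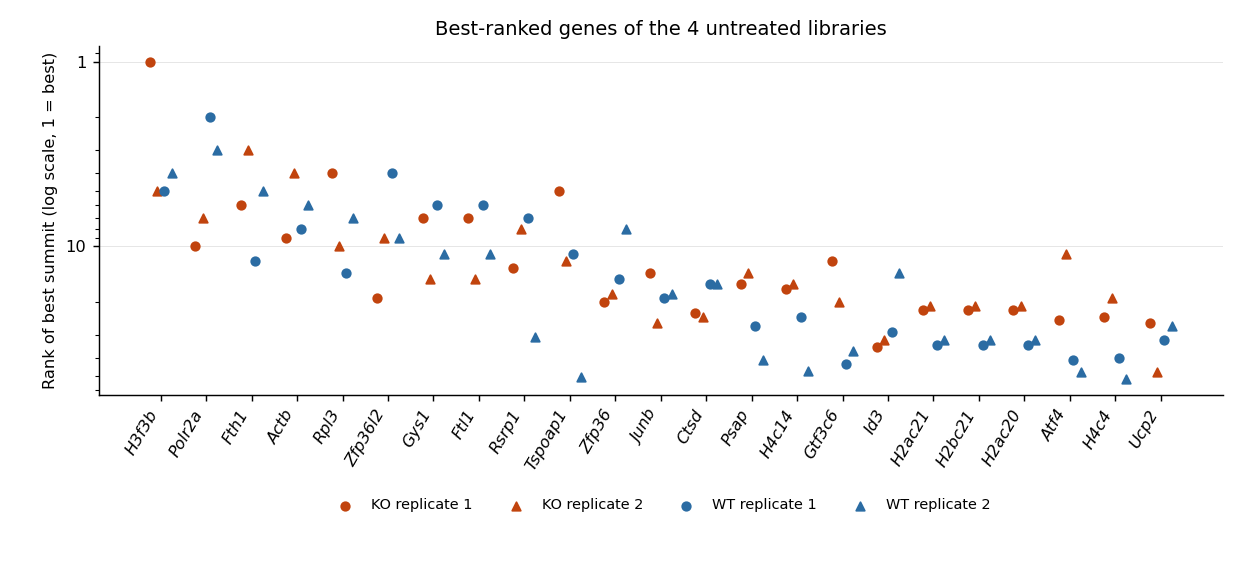
Rank of the best summit (y axis, log scale, best rank at the top) in each untreated library for 23 of the first 25 of the 117 genes. All 23 lie between rank 1 and rank 52 in every library, and which of KO (red) and WT (blue) ranks better varies from gene to gene.

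Other abundant-protein genes followed close behind. Among chaperones of the endoplasmic reticulum, Calr (calreticulin) stood at ranks 55 and 54 in KO and at 59 and 39 in WT, and Hspa5 (BiP) at 109 and 83 in KO and at 81 and 101 in WT. Abca1, the cholesterol efflux transporter gene, stood at 137 and 82 in KO and at 79 and 98 in WT. Rhob, a small GTPase gene of the actin list, stood at 46 and 34 in KO and at 76 and 26 in WT. All 4 genes overlapped between genotypes. Tapbp (tapasin), of the antigen presentation list, stood at 90 and 112 in KO and at 64 and 110 in WT, 10167 to 10230 bp from its own start, and shared its summit with Rgl2.

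Most of these summits sat by a start. Of the 97 genes with a stranded start, the best summit lay within 1 kb of a start for 80 and 79 in KO and for 76 and 79 in WT. It lay only within 1 kb of the 3′ end for 11 and 10 in KO and for 15 and 13 in WT.

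None of the 117 genes passed the test of KO against WT. Their differences ran from −1.77 to 1.61, with a median of 0.04, against 0.00 over all genes tested. Of the 117, 19 were also among the best 200 of all 12 R837 lists and 26 were in the best 200 of none. H3f3b, Polr2a, Fth1, Actb and Rpl3 belonged to the first of these sets, and Zfp36l2, Ctsd and Psap to the second.

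Promoter sequences show where these summits lie and what the windows hold. RefSeq promoter windows (GRCm38.p6, 250 bases before to 50 after the start) were present for 97 of the 117 genes. The letters TATAAA (either strand) occurred in 23.7% of these windows, against 7.06% of the windows of genes tested and 13.3% of all 17492 coding windows. CCAAT occurred in 51.5%, against 39% of the windows of genes tested, and GGGCGG, the core of the GC box, in 70.1% against 65.3%. The PU.1-type sequence GAGGAAGT occurred in 3.09% of the windows, against 3.52% of those of genes tested. These are matches of letters and not measured binding. The genes were also short, with a median span of 7901 bp, against 20566 bp for all genes tested. The windows of the first 5 genes that have an entry and a best summit within 1 kb of its start are shown on the gene's strand, with matches to these 4 motifs in capitals. A match on the other strand is printed as its reverse complement.
H3f3b (chr11:116024455-116024754, minus strand): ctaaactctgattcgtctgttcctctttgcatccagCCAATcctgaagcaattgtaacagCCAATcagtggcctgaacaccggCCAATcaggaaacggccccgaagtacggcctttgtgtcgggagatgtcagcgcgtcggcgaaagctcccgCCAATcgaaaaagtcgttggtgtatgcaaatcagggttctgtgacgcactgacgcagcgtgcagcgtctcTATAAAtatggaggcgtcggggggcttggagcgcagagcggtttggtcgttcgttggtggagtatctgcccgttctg
Polr2a (chr11:69758584-69758883, minus strand): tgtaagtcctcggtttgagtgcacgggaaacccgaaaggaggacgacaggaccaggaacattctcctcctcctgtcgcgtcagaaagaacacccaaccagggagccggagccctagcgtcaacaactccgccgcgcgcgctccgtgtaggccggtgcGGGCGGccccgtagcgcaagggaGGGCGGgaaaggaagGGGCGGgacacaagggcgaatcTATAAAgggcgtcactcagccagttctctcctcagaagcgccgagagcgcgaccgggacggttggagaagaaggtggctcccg
Fth1 (chr19:9982396-9982695, plus strand): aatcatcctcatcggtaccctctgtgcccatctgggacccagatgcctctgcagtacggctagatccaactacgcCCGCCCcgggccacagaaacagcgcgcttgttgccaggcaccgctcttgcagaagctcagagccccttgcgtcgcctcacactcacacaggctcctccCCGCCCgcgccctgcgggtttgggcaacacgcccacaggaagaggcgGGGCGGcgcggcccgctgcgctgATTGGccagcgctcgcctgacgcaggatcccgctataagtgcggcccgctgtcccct
Rsrp1 (chr4:134923375-134923674, plus strand): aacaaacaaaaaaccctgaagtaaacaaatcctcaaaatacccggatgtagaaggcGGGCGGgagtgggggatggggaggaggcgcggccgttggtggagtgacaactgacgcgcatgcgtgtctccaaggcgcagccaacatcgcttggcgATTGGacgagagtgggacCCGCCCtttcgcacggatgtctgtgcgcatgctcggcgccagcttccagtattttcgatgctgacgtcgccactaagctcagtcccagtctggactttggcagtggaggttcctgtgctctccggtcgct
Zfp36 (chr7:28379179-28379478, minus strand): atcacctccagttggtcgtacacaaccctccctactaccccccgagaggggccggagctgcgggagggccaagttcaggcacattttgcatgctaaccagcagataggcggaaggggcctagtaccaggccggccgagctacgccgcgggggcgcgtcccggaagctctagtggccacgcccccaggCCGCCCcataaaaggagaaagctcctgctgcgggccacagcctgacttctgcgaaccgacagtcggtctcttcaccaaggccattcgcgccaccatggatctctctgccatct

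In the H3f3b window a TATAAA match begins 27 bases before the start and 4 CCAAT matches lie upstream of it, and the summits lay 52 to 97 bp inside the gene in KO and 88 to 95 bp in WT. In the Polr2a window TATAAA begins 33 bases before the start and 3 GGGCGG matches precede it, with summits 38 to 53 bp inside the gene in KO and 49 to 60 bp in WT. The other 3 windows hold no TATAAA.

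Noncoding RNA genes reached the top of the lists too. The lncRNA Neat1, the scaffold of nuclear paraspeckles, stood at ranks 3 and 2 in KO and at 1 and 1 in WT. Rnu11, which encodes the U11 RNA of the minor spliceosome, stood at 2 and 1 in KO and at 3 and 2 in WT. Malat1, a lncRNA of nuclear speckles, stood at 31 and 28 in KO and at 17 and 12 in WT. Neat1 and Malat1 had better ranks in both WT libraries than in either KO library, as did 13.7% of the coding genes tested. No test was run on noncoding genes. In all, 35 noncoding genes were among the best 200 of every list, 18 of them lncRNA and 10 snoRNA genes, and 13 had no coding gene at the summit.

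The test of KO against WT called few genes. The test covered the 8475 genes that 2 or more of the 16 shortened lists contained, and limma called 55 higher in KO (0.649%) and 61 lower (0.72%), 116 in all (1.37%, adjusted p under 0.05). Most calls concerned weakly ranked genes: the median rank score at rest was 0.59 among called genes and 0.89 among all tested. Of the 116, 88 lacked a summit in at least 1 shortened list and 43 lacked one in both shortened lists of 1 genotype, although 111 had a summit in all 4 full lists. In addition, 25 of the 116 passed the filter on low values only through the untreated lists of the genotype in which they ranked better (99 of all genes tested did so). With a score of 0 in the other 14 libraries these 25 had to differ, and their calls are not read as results. The other 91 had a summit elsewhere too. Of the 116, 59 had no summit in any treated list, against 682 of all genes tested. For these 59 the treated libraries all score 0 and add no spread, which lowers their SE, and so their p, by construction. The SE was 0.18 for Rnf26, 0.21 for Dchs1 and 0.21 for Lrrk1. With the 4 untreated libraries alone it was 0.53, 0.57 and 0.60. The spread in this fit is pooled over all 16 libraries. Leaving 1 untreated library out of this fit left 1 library in its group and raised the number of calls each time, although data were removed. With only the 4 untreated libraries in the fit, no gene was called, and 323 of 7159 had an unadjusted p under 0.05. Each named change below therefore holds against the pooled spread and not against that of the untreated libraries alone, where its adjusted p was 0.908.

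Among the genes higher in KO, the largest change was at Atp6v1c1, which encodes subunit C1 of the lysosomal proton pump. It stood at ranks 388 and 1056 in KO, against 4074 and 3916 in WT. The rank score was higher by 2.64 ± 0.55 (SE, n = 2 each, limma adjusted p = 0.0328). Letmd1, which encodes a mitochondrial protein, stood at 1166 and 570 in KO, against 4329 and 5263 in WT, a change of 2.55 ± 0.57 (adjusted p = 0.0489, limma). Both KO libraries stood clear of both WT libraries for these genes.

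Ankrd10 stood at ranks 1254 and 2299 in KO, against 6622 and 7924 in WT (2.09 ± 0.40). Pkd1 (polycystin-1) stood at 963 and 1655 in KO, against 7461 and 3021 in WT (1.91 ± 0.42). Taf6, a subunit of the promoter recognition complex TFIID, stood at 3740 and 2138 in KO, against 12055 and 10527 in WT (1.57 ± 0.26). It shared its best summit with Cnpy4 in 1 list. Taf6 had no summit in either shortened WT list, so its score there was 0.00. Hypk, whose product binds the nascent-chain acetyltransferase NatA, changed by 1.49 ± 0.32, and Dchs1, a protocadherin gene, by 1.39 ± 0.21. Dchs1 shared its best summit with the lysosomal peptidase gene Tpp1 in 2 lists.

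Lrrk1, a leucine-rich repeat kinase gene, stood at ranks 2962 and 2429 in KO, against 5609 and 12576 in WT (1.36 ± 0.21). WT replicate 2 was the lowest library. Macir changed by 1.33 ± 0.28, Fam126a by 1.38 ± 0.29 and Galm, which encodes galactose mutarotase, by 1.32 ± 0.19. The limma adjusted p of these 11 genes ran from 0.00614 to 0.0489.

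Among the genes lower in KO, Tal1 had the best ranks. It encodes a basic helix-loop-helix factor needed for blood cell formation, and stood at 922 and 1348 in KO, against 158 and 200 in WT. Its rank score fell by 2.65 ± 0.57 (SE, n = 2 each, limma adjusted p = 0.0388). It is the only called gene among the 16 that stood in the best 200 of both WT lists and of neither KO list.

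Znrd2 had the largest fall. It stood at ranks 2063 and 5808 in KO, against 693 and 420 in WT (−2.68 ± 0.58), with a summit that also serves Fam89b in 3 lists. Slx1b, which encodes the catalytic subunit of a structure-specific endonuclease, stood at 7204 and 6146 in KO, against 1052 and 1404 in WT (−2.45 ± 0.53), and shares its summit with Bola2. Kif11, a mitotic kinesin gene, stood at 2441 and 4393 in KO, against 635 and 786 in WT (−2.21 ± 0.48). Arid2, a subunit of the PBAF chromatin remodeller, stood at 10874 and 10241 in KO, against 1023 and 3431 in WT (−2.16 ± 0.41).

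Scarb1, the receptor for high-density lipoprotein, stood at ranks 9002 and 7041 in KO, against 2008 and 2438 in WT (−1.80 ± 0.21, limma adjusted p = 0.00157). Thbd (thrombomodulin) stood at 7553 and 6202 in KO, against 3780 and 1343 in WT (−1.60 ± 0.35). Sec62, a component of the endoplasmic reticulum translocon, stood at 8463 and 7186 in KO, against 3321 and 1894 in WT (−1.63 ± 0.30). Ifrd2, Anks3, Rnf26 and Olfml3 changed by −1.76 ± 0.40, −1.73 ± 0.31, −1.56 ± 0.18 and −1.53 ± 0.34. Rnf26 had KO scores of 0.03 and 0.05 and no summit in any treated list, so its SE was small by construction. All 12 genes had both KO ranks worse than both WT ranks, and their limma adjusted p ran from 0.00157 to 0.0498. The assignment of summits to genes decided some of these calls: with regions extended by 3 kb, Anks3 had a difference of 0.26, and Arid2, at −0.96, and Slx1b, at −1.2, did not pass. With gene spans alone (0 kb), Znrd2 had −0.39, Slx1b −1.5 and Ifrd2 −1.19, and among the genes higher in KO Macir had 0.35 and Hypk 0.68, none of which passed.

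**Figure D3:**
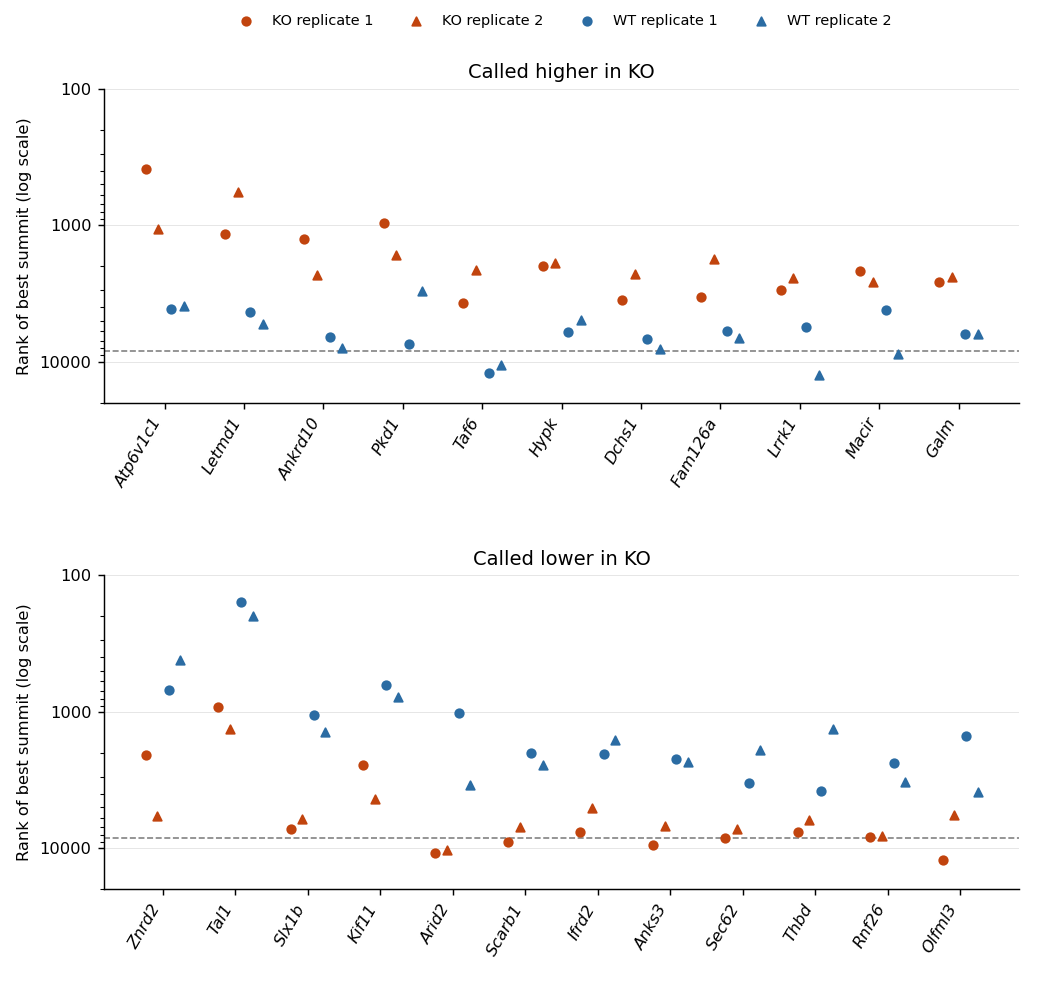
Rank of the best summit in the full deposited list (y axis, log scale, best rank at the top) for the largest changes in each direction (11 genes higher in KO and 12 lower), KO in red left of WT in blue. The dashed line marks rank 8394, below which a summit scores 0, and some ranks, such as those of Taf6 in WT and Arid2 in KO, lie past it.

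Promoter windows are shown for the first 2 genes in each direction that have an entry with its start within 1 kb of a best summit, Letmd1 and Ankrd10 (higher in KO) and Tal1 and Slx1b (lower in KO), with the same 4 motifs in capitals.
Letmd1 (chr15:100468761-100469060, plus strand): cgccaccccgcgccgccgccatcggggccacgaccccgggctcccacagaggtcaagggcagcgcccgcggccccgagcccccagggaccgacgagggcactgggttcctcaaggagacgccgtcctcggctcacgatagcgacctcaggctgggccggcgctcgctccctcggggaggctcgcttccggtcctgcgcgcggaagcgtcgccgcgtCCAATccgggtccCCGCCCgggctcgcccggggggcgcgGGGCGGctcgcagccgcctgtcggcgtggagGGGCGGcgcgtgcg
Ankrd10 (chr8:11635708-11636007, minus strand): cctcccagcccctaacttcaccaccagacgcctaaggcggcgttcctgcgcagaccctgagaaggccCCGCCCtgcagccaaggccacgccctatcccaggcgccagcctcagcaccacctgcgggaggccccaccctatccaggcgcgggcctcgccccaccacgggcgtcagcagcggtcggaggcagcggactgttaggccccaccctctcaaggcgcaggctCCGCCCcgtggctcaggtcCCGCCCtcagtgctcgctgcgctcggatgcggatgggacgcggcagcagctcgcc
Tal1 (chr4:115057561-115057860, plus strand): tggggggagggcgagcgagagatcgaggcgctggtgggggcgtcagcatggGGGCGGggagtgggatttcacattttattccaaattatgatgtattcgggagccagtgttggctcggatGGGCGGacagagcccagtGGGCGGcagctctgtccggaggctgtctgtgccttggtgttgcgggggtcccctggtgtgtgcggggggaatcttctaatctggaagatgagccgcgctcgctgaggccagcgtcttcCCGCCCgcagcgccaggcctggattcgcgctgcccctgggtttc
Slx1b (chr7:126695734-126696033, minus strand): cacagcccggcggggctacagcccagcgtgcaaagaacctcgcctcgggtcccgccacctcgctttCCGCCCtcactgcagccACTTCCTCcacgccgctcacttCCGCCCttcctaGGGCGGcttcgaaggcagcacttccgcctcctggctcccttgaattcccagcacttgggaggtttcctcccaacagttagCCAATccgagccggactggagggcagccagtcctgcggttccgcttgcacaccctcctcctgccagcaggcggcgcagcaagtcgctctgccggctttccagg

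None of these 4 windows holds TATAAA, and each holds GGGCGG at least 3 times. TATAAA occurred in 11.6% of the windows of genes called higher in KO and in 0% of those of the 46 genes with an entry called lower, against 7.06% of the windows of genes tested. The summits of Letmd1 lay 147 and 169 bp before the start in KO and 188 and 145 bp before it in WT, so position did not separate the genotypes there.

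Lists of this size can hardly be read against the share of calls among all genes tested, 1.37%, so a count of 0 calls says little about their members. Components of the IKK, caspase-8 and TLR7 pathways, 44 genes of which 40 were tested, had 0 calls, and 24 had a summit in all 4 shortened lists. The best-ranked was Rnf31, which encodes the catalytic subunit of the linear ubiquitin ligase LUBAC, at 420 and 315 in KO and 269 and 129 in WT. It shared that summit with Irf9, a subunit of the interferon-activated factor ISGF3. Unc93b1, which escorts TLR7 to endosomes, stood at 358 and 658 in KO and at 423 and 152 in WT. Ripk1, the kinase of the TNF receptor complex, stood at 287 and 1588 in KO and at 1546 and 1612 in WT. Casp8, the protease that cleaves N4BP1, stood at 3431 and 2343 in KO and at 4179 and 2710 in WT. Rnf31 was lower in KO without overlap by −0.97 ± 0.70, which did not pass (SE, limma adjusted p = 0.744), and the KO and WT ranks of the other 3 genes overlapped.

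Of 32 NF-kB primary targets, 12 (37.5%) had a summit in all 4 shortened lists, against 21.7% of all genes, and 0 of 31 tested were called. Tnf was the best placed, at ranks 282 and 172 in KO and at 130 and 395 in WT, followed by Nfkbia (IkB-alpha), at 213 and 465 in KO and at 692 and 507 in WT. Of 26 interferon-stimulated genes, 4 (15.4%) had a summit in all 4 lists, and 0 of 24 tested were called.

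Immediate early genes had a summit in all 4 shortened lists for 19 of 28 (67.9%), with 0 of 23 tested called. Fos stood at ranks 125 and 67 in KO and at 124 and 71 in WT, and Dusp1, a MAP kinase phosphatase gene, at 111 and 31 in KO and at 80 and 60 in WT. Dusp2, another phosphatase gene of this family, stood at 4289 and 6381 in KO, against 575 and 322 in WT. Its difference of −3.60 ± 1.46 was the largest of the list and did not pass (SE, limma adjusted p = 0.386).

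Genes of ribosomal proteins and histones leaned towards better ranks in KO. Of 77 ribosomal protein genes, 72 (93.5%) had a summit in all 4 shortened lists, and of 62 replication-dependent histone genes 52 (83.9%) did. The summed rank score of the ribosomal protein genes was 247 to 258 in KO, against 217 to 221 in WT, and that of the histone genes was 219 to 224 in KO, against 188 to 201 in WT. Both KO libraries stood above both WT libraries for 27 ribosomal protein genes (35.1%) and below them for 5. Over all genes tested the shares were 14.8% above and 13.7% below. For histone genes they stood above for 18 of 57 (31.6%) and below for 3. The median difference was 0.43 for ribosomal protein genes and 0.51 for histone genes, against 0.00 over all genes tested. Some histone genes share 1 summit, so these counts, sums and medians hold the same measurement more than once. H2ac20, H2ac21 and H2bc21 each have a difference of 0.62 from 1 shared summit, and H2bc18 and H3c13 each have 0.48. No ribosomal protein gene passed the test. H2ac10, the only gene of the histone list past the threshold, was among the 25 genes with a score of 0 in all other libraries.

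Rps14, a small subunit gene, stood at ranks 533 and 260 in KO, against 2031 and 1150 in WT, a difference of 2.04 ± 0.63 (SE, limma adjusted p = 0.174). H1f3, a linker histone gene, stood at 278 and 251 in KO, against 791 and 1367 in WT, a difference of 1.98 ± 0.67 (limma adjusted p = 0.25). In the other direction, Rps13 stood at 1743 and 2037 in KO, against 540 and 741 in WT (−1.57 ± 0.72, limma adjusted p = 0.468). H2ac10 stood at ranks 11447 and 16246 in KO, against 4114 and 5239 in WT, and shared its best summit with H3c8 in 1 list. Leaving out 1 library at a time kept the medians at 0.36 to 0.63 for ribosomal protein genes and at 0.42 to 0.54 for histone genes, while the count of summits per gene gave a median of 0 for both. The other genes under 5 kb with a summit in all 4 lists, 631 in number, had a median of −0.04. Histone genes have near-identical copies and ribosomal protein genes have many pseudogenes, and how reads with several matches were placed is not given in the sources used here.

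**Figure D4:**
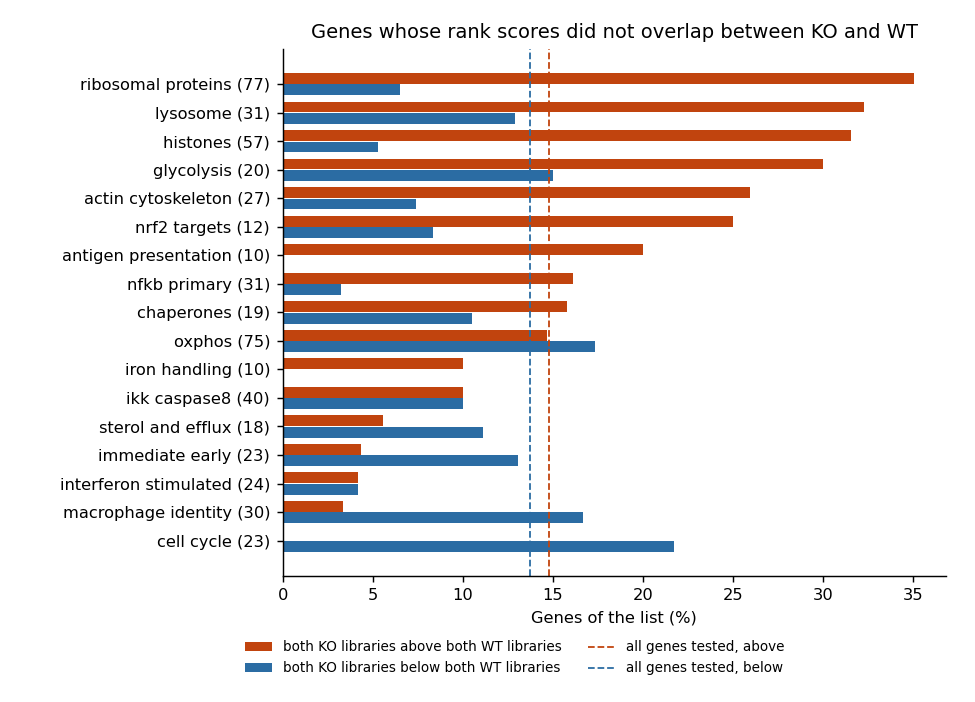
Share of the tested genes of each list (x axis, percent, number tested in parentheses) for which both KO libraries lay above (red) or below (blue) both WT libraries. Dashed lines mark all genes tested, 14.8% above and 13.7% below, and ribosomal proteins reach 35.1% above and histones 31.6%. Genes that share a summit are each counted.

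Of 31 lysosomal genes tested, 10 (32.3%) had both KO libraries above both WT libraries and 4 (12.9%) below, with a median difference of 0.29. All genes tested had shares of 14.8% above and 13.7% below and a median of 0.00. Among 75 respiratory chain genes tested the counts were 11 above (14.7%) and 13 below (17.3%), near the shares of all genes tested. Ndufc2, a subunit gene of complex I, stood at ranks 3658 and 3926 in KO, against 8938 and 8871 in WT, and was likewise past the threshold with a score of 0 in all other libraries. Of 23 cell cycle genes tested, none had both KO libraries above both WT libraries, 5 (21.7%) had both below and 0 were called, with a median difference of −0.28. The summed rank score of the list was 18.44 to 18.69 in KO and 19.24 and 31.8 in WT, the highest being WT replicate 2. The cyclin-dependent kinase inhibitor gene Cdkn1a stood at 348 and 421 in KO and at 544 and 70 in WT, and E2f1, a transcription factor gene of S phase entry, at 11478 and 12939 in KO and at 5433 and 1486 in WT (−1.56 ± 0.41, limma adjusted p = 0.0912). The mitotic gene Kif11, named above, stood at 635 in WT replicate 1 and at 786 in WT replicate 2, against 2441 and 4393 in KO. A link between its fall and this list was not tested.

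Few regions were called between KO and WT. Summits of the 4 lists, shortened to 20607, were joined within 500 bp into 28578 regions, of which 11061 had a summit in all 4 and 19602 in at least 2. The fit called 3 higher in KO (0.0153%) and 3 lower (0.0153%), 6 regions in all (0.0306%). Each of the 6 passed the filter only through the 2 lists of the genotype in which it was called higher, so it had to differ, and the regions are described here by position and rank alone. They lay in pairs or beside a summit of the other genotype. At Tmsb4x, which encodes the actin-sequestering peptide thymosin beta-4, the region chrX:167209089-167209116 by an annotated start held the KO summits. The region chrX:167206305-167206559 past the 3′ end held the WT summits. The gene as a whole stood at ranks 67 and 72 in KO and at 73 and 79 in WT, so its place in the lists hardly differed and the position of its best summit did.

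At 2 other genes both the position and the rank differed. At Sirt4, which encodes a mitochondrial sirtuin, the best summits lay at chr5:115490242-115490244 in KO and at chr5:115489557-115489563 in WT, about 0.7 kb apart, with ranks of 153 and 58 in KO and of 239 and 166 in WT. At Metrnl, a secreted factor gene, the KO summits at chr11:121702481-121702507 were at the start, ranks 142 and 160, and the WT summits lay 761 and 844 bp inside the gene, ranks 422 and 316. The sixth region, chr7:45715286-45715370, inside the span of Sphk2 and in the gene region of Rpl18, held the WT summits, ranks 197 and 288. The nearest KO summits lay 1054 and 1216 bp away, ranks 390 and 19854. A summit list gives 1 base per summit, so a shift within a broad peak looks like a gain and a loss. The count of regions called depended on the settings, and it rose with a replicate block, as given below. With joining distances of 250 or 3000 bp no region was called, and leaving out any 1 of the 4 libraries also left none (1310 to 1571 of 19602 regions with unadjusted p under 0.05).

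Summit position was therefore described across the 499 genes in the best 1000 of all 4 lists. The best summits of 408 of them lay within 500 bp of each other in all 4 libraries. For 8 genes, picked after their values were seen, both KO positions lay at least 500 bp to 1 side of both WT positions: Csf1r, Tmsb4x, Clic1, Sirt4, Metrnl, H2bc6, Irf5 and Plekho1. The KO summits were nearer the annotated start for 4 and the WT summits for 3, and for Csf1r no stranded start was used. Irf5, the interferon regulatory factor of TLR7 signalling, had its best summit 2768 and 423 bp from the start in KO, against 13080 and 13062 bp in WT. Its ranks, 378 and 348 in KO and 353 and 450 in WT, overlapped. At Csf1r the KO and WT positions were 23341 bp apart, with ranks of 70 and 70 in KO and of 47 and 45 in WT. The KO summit of Csf1r was also that of the adjacent gene Hmgxb3, which stood at 51 and 50 in WT. The WT summit of Clic1 was likewise that of Ddah2, which stood at 101 and 162 in WT and at 247 and 259 in KO. A change of order between neighbouring summits can thus read as a shift of the best summit.

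**Figure D5:**
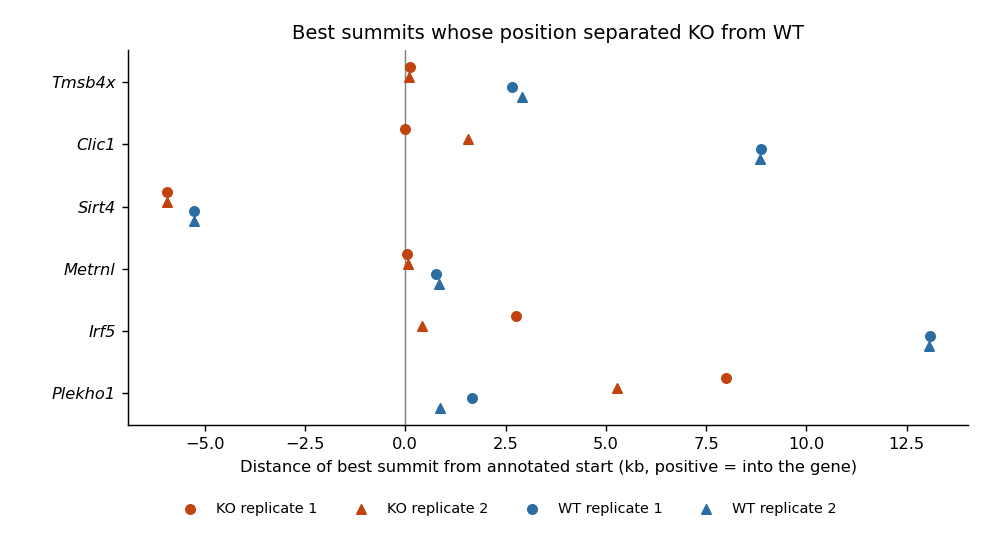
Distance of the best summit from the nearest annotated start (x axis, kb, positive into the gene) for 6 of the 8 genes whose summit positions separated KO (red) from WT (blue). Csf1r, with no stranded start, and H2bc6, whose summits lie by different annotated starts, are not drawn. Tmsb4x, Clic1, Metrnl and Irf5 have their KO summits nearer the start. The WT summits of Clic1 are also those of Ddah2.

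Whether a difference at rest exceeded that after R837 was tested as the KO minus WT difference at rest less the mean KO minus WT difference over the 3 treated times. Of the 8475 genes, 32 were higher on this measure (0.378%) and 47 lower (0.555%), 79 in all (0.932%). Among them were 70 of the 116 genes called at rest. Of the 116, 59 had no summit in any treated list, so their treated difference was 0 by construction. For these 59 the measure repeats the difference at rest, so much of the overlap was set in advance. When genes rather than summits were ranked, 1 gene was called.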

How the data were processed

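RNA polymerase II ChIP-seq libraries of mouse bone marrow-derived macrophages were sequenced as 75 nt single-end reads, per the labels' protocols. GSNAP and MACS2 were used with GRCm38, per the submitters' processing notes, but versions and settings are not given in the sources used here. The authors deposited 1 file per library of 1 bp summits, each with the −log10 of a p-value or of a q-value, without stating which of them. From these values only the order of summits inside a list was taken, and equal values kept the deposited order. Depth is unknown, so no counting interval is given. Gene spans and symbols came from RefSeq (GRCm38.p6), with strand only where a promoter window exists (17492 of 21887 genes).

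Rank scores were fitted with limma 3.58.1 (R 4.3.3; trend, empirical Bayes) over the 8 groups of 2, with Benjamini-Hochberg adjustment over all 8475 genes. Regions were fitted over the 4 untreated libraries alone. Single measures were compared by exact two-sided permutation. The fits were also run on simulated scores, with the same noise for every gene or region and changes only at intermediate rank scores. Those runs do not check calls among weakly ranked genes, where most calls lay. The genes, gene lists and comparisons were chosen with earlier results of these data known. Named genes were the first 25 by mean rank score among those in the best 200 of all 4 lists, the 12 largest called changes in each direction, N4bp1, up to 4 leading members of each list and called members, except that some of these genes are not reported here. Noncoding genes, Casp8, Dusp2, E2f1, Irf5, Rhob, Rps13, Rps14, H1f3 and the genes with separated summit positions were named after their values were seen. Promoter windows whose start lay over 1 kb from every best summit (Gys1, Ftl1, Znrd2) were passed over for the next gene, a choice made after the data were seen. Alternatives covered list length, gene extension, filters, scoring, joining distance, a replicate block and each library left out.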

Additional observations from a re-analysis of the deposited data

Results flagged for a closer look

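For 13 of the named genes the KO minus WT difference in rank score at rest differed from the mean KO minus WT difference over the R837 times, by limma's test of that difference (adjusted over 8475 genes, 4 untreated and 12 treated libraries). For Tal1 the difference was −3.19 ± 0.65 (SE, adjusted p = 0.0405, limma), with a mean treated rank score of 1.20 in KO and 0.66 in WT and a summit in 9 of 12 treated lists. For Ifrd2 it was −2.21 ± 0.46 (adjusted p = 0.044, limma), with 0.55 in treated KO and 0.11 in treated WT. Both genes thus had the lower score in KO at rest and the higher mean in KO after R837.

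For the remaining genes few or no treated lists held a summit. The difference was −2.24 for Arid2, −1.89 for Anks3, −1.81 for Scarb1 and −1.77 for Sec62, and these had a summit in 4, 4, 2 and 2 of 12 treated lists. It was 1.47 for Taf6 and 1.35 for Galm, each with a summit in 1. It was 1.39 for Dchs1, 1.36 for Lrrk1, −1.56 for Rnf26, 1.15 for Ndufc2 and −0.85 for H2ac10, which had no summit in any of the 12, so that their treated difference was 0.00 by construction. The adjusted p of these 11 genes ran from 0.00743 to 0.0479 (limma). Ndufc2 and H2ac10 passed the filter on low values only through the 2 untreated lists in which they ranked better, so they had to differ. When genes rather than summits were ranked, 5 of the 13 entered the test (Tal1, Ifrd2, Anks3, Scarb1 and Galm), and none of these 5 passed.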

How the results depend on the processing

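The 116 genes called between KO and WT at rest became 0 with only the 4 untreated libraries in the fit (323 of 7159 with unadjusted p under 0.05) and 0 with those lists at 20607 summits (528 of 9974). Ranking genes rather than summits called 40 of 5226, of which 7 were among the 116, and counting summits called 129, of which 29 were. Leaving out 1 untreated library gave 377 to 476. The remaining alternatives gave 116 to 163. The 6 regions became 3 when joined within 1000 bp, and 0 when joined within 250 bp, within 3000 bp (chosen after seeing the data), without a filter, or with lists of 8394 (488 and 379 with unadjusted p under 0.05 in the last pair). Leaving out a library gave 0 to 0. The 79 genes that differed between rest and R837 became 1 with genes ranked, and 300 to 451 without 1 library (chosen after seeing the data). The 117 best-ranked genes became 59 at the best 100 and 245 at the best 500, and 7 leading genes, Fth1 and Ftl1 among them, lost rank without the flanking 1 kb.

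Nothing in the labels ties libraries of the same replicate number, and the replicate 1 minus 2 differences of KO and WT correlated at 0.03 over 8475 genes. The share of summits at starts did move with the number, at 58.4% and 61.3% in KO replicates 1 and 2 and 58.7% and 61.2% in WT replicates 1 and 2. With a replicate block, 0 genes (855 with unadjusted p under 0.05) and 91 of 19602 regions were called, more than the 6 of the main fit.

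Of 333 values of named genes under alternatives, 183 kept direction and call, 146 lost the call (12 of them with a difference of 0) and 4 reversed: Letmd1 (−0.29) and Thbd (0.29) when summits were counted, and Anks3 (0.26) and H2ac10 (1.18) with 3 kb extensions. The cause was not tested. The ribosomal protein and histone medians were 0.65 and 0.27 without flanks. Unknown depth limits every comparison: a missing summit does not show absent polymerase.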

Other observations

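Some genes stood in the best 200 of both lists of 1 genotype and of neither list of the other, 11 for KO and 16 for WT. They are described without a test, since rank chose them. On the KO side were B2m, the light chain of MHC class I, at ranks 114 and 78 in KO and at 361 and 268 in WT, and Pdgfb, a growth factor gene, at 88 and 139 in KO and at 266 and 398 in WT. Slc3a2, a subunit gene of amino acid transporters, stood at 192 and 87 in KO and at 203 and 262 in WT, so WT replicate 1 missed the best 200 by 3 places. On the WT side was Lgals1 (galectin-1), at 207 and 633 in KO and at 102 and 96 in WT. Among these genes limma called Tal1 alone.

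Glycolysis genes had no member in the best 200 of all 4 lists. Aldoa (aldolase A) came closest, at ranks 202 and 146 in KO and at 141 and 88 in WT, and Gapdh stood at 404 and 144 in KO and at 317 and 253 in WT. Of 20 tested, 6 had both KO libraries above both WT libraries, 3 had both below (30% and 15%, against 14.8% and 13.7% of all genes tested), and 0 were called, against 1.37%.

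In lists of 20607 summits, 801 regions were found in both KO lists alone and 881 in both WT lists alone, against a mean of 706 for each pairing of 1 KO with 1 WT list. Of the first, 599 were also in neither full WT list, and of the second, 714 in neither full KO list. Of these, 146 for KO and 336 for WT had no summit of the other genotype within 3 kb. The counts against full lists have no figure for mixed pairings beside them. Because the full lists differ in length, these counts are not read as a difference between genotypes.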
